A study of Mus musculus with 130 samples.

Results

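Wild-type J1 and wild-type TT2, both mouse embryonic stem cell lines, were compared by RNA-seq, with 1 library of each. The comparison covers every gene that reached 1 CPM in either library (CPM is the number of reads of a gene per mega-read of its library, after scaling between libraries), with chromosome Y left out, which was 13703 of the 52550 genes in the tables. The lines differ in strain. J1 is labelled 129S4/SvJae and TT2 is labelled C57BL/6xCBA, and both are labelled WT with no treatment. Per the labels' protocols, the cells grew on gelatin in serum with leukemia inhibitory factor, and total RNA was made into libraries with Smart-seq2, a full-length method in which cDNA is amplified by PCR. The other 8 of the 10 RNA libraries serve only as reference points. They are a double and a triple mutant of DNA methyltransferases (Dnmt3a/3b DKO, and the TKO that lacks Dnmt1 as well), which carry the strain label of J1, and 6 libraries with the strain label of TT2. These 6 are G9a CM (a catalytically mutant G9a), the library labelled G9a/GLP DKO, and 4 libraries of a G9a inhibitor experiment, namely a vehicle-treated wild-type TT2 culture (the inhibitor control) and cells given UNC0638 at 250 nM in the titles for 2, 4 and 14 days.

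Embryonic stem cells come from the blastocyst's inner cell mass and, under leukemia inhibitory factor and serum, hold a self-renewing state called naive pluripotency. In serum they move between that state and a more advanced, formative or primed one, and a few cells at a time enter programmes of the primitive endoderm or the 2-cell embryo. Lines differ in inherited sequence variants, in the state in which they settled in culture, and in chromosome changes gained during passage. With 1 library of each line these cannot be told apart from each other or from the handling of the cultures and libraries.

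Total counts were 16405518 in J1 and 25609600 in TT2. A gene was called higher or lower in J1 where the difference in log2(CPM + 1) was at least 1 and the exact 95% conditional binomial interval of the count ratio excluded 1. Folds are ratios of CPM, and each interval covers counting error only, since amplified reads that carry no molecular identifier are not independent molecules. With 1 library of each line no test was possible, and higher and lower describe these libraries. By this rule 1497 genes (10.9%) were higher in J1 and 1759 (12.8%) lower, with a median difference of -0.06 over all measured genes. Differences of at least 2 on the log2 scale were present in 274 of the higher and 239 of the lower genes. Of all calls 46.0% were higher in J1, against 56.2% with DESeq2 size factors and 29.4% by deposited TPM, so the balance of higher and lower genes depended on the scaling. The median over all genes was -0.33 by deposited TPM, and changes on that scale are relative to it.

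**Figure D1:**
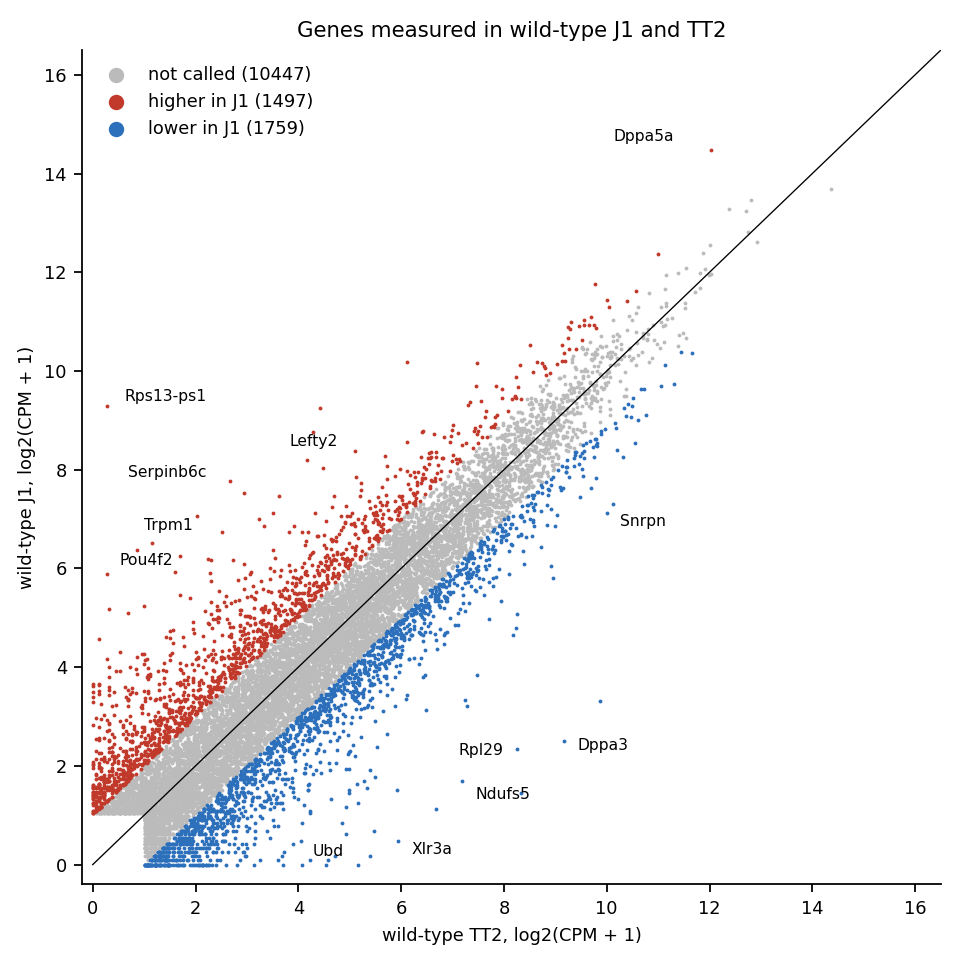
Each point is 1 of the 13703 measured genes, placed by log2(CPM + 1) in TT2 on the x axis and in J1 on the y axis, with the line of equal values in black. The 1497 genes higher in J1 are red, the 1759 lower genes are blue, and names mark genes described in the text, such as Rps13-ps1 far above the line and Dppa3 far below it.

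A difference this wide was also found within TT2. The inhibitor control, also wild-type TT2, differed from the untreated TT2 library in 6553 of 13715 measured genes (47.8%), and J1 differed from it in 8401 of 14054 (59.8%; 29.1% higher and 30.7% lower in J1). Fragment length, read as gene length minus the effective length in the tables, was 149.8 bases in TT2, 186 in J1, 184 to 198 in the 4 mutant libraries and 251 to 275 in the 4 inhibitor-experiment libraries. The part of fragment length in these counts was not tested. J1 values below are therefore set beside both wild-type TT2 libraries for some of the genes and lists where those 2 libraries part ways. Both comparisons use the same J1 library.

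The remaining libraries gave a second reading of the line difference. A gene was counted as keeping the lines apart where both Dnmt mutant libraries lay above, or both lay below, all 6 other libraries labelled C57BL/6xCBA, none of which entered the calls. Of all measured genes, 17.3% had the Dnmt mutants above and 15.9% below. Of the 1497 genes higher in J1, 624 (41.7%) had them above and 29 below. Of the 1759 genes lower in J1, 698 (39.7%) had them below and 74 above. Strain and loss of Dnmt3a and Dnmt3b cannot be told apart in these 2 libraries. The calls themselves favour extreme values in J1 and TT2, so the following counts are a description only. J1 held the highest of the 10 values in 1184 of the 1497 higher genes (79.1%, background 23.7%) and the lowest in 1263 of the 1759 lower genes (71.8%, background 22.6%). TT2 held the lowest value in 144 of the higher genes (9.62%, background 4.68%) and the highest in 373 of the lower genes (21.2%, background 11.2%).

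The promoters shown here belong to the leading genes that were called and kept the lines apart, 2 in each direction, among those with a promoter listed in the RefSeq table (GRCm38.p6). Each window runs from 250 bases before the gene start to 50 bases after it, 5′ to 3′ on the gene's strand. Capitals mark the dinucleotide CG, the target of DNA methylation, which reads the same on both strands. Over the 9606 measured protein-coding genes with a window, the median was 21 CG per 300 bases. Pou4f2 (chr8:78436598-78436897, minus strand) had 18, and 41.6% of windows had as many or fewer.
Pou4f2: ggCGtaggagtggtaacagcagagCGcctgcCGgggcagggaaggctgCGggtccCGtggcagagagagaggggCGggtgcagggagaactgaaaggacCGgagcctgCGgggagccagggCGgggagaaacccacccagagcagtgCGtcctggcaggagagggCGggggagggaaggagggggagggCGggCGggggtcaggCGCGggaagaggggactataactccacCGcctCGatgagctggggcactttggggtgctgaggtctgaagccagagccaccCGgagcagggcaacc
Trpm1 (chr7:64153585-64153884, plus strand, the first of 2 windows listed) had 2, and 2.62% of windows had as many or fewer.
Trpm1: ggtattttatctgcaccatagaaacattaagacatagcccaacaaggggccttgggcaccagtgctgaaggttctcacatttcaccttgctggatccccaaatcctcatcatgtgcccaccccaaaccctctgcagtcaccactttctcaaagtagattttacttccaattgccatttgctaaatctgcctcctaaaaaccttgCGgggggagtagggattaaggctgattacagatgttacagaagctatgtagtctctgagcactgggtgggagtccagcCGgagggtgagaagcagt
Ndufs5 (chr4:123718137-123718436, minus strand) had 25, and 66.2% of windows had as many or fewer.
Ndufs5: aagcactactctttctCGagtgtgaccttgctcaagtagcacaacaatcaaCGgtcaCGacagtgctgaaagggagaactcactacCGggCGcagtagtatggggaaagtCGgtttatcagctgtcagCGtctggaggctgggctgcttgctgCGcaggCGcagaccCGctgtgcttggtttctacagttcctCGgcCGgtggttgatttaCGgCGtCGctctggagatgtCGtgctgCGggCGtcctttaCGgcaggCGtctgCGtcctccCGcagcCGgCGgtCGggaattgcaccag
Ubd (chr17:37193642-37193941, plus strand) had 0, as did 0.354% of windows.
Ubd: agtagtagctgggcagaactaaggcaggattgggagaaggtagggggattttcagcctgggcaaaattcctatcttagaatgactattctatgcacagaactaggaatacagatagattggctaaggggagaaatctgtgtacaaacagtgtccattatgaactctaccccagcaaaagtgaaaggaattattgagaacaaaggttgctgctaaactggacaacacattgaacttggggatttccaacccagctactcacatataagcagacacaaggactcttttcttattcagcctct
The windows of the genes higher in J1 thus held 18 and 2 CG and those of the lower genes 25 and 0. Among genes that were called and kept the lines apart, the medians were 17 CG for 337 higher and 21 for 527 lower genes, and 22.6% and 11.4% had a ratio of observed to expected CG under 0.4. Over all called genes the medians were 18 CG for 835 higher and 19 for 1287 lower genes. The ratio was under 0.4 in 22.8% of higher, 20.0% of lower and 11.3% of uncalled genes.

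The largest difference upward among called protein-coding genes that reached 10 CPM and have a standard symbol was in Pou4f2 (ENSMUSG00000031688.4, chr8:78433009-78436647), a POU-domain transcription factor of retinal ganglion cells and sensory neurons. It stood at 58.0 CPM in J1 and 0.206 in TT2, at 3.62 and 2.92 in the Dnmt double and triple mutants, and at 0.101 to 2.85 in the 6 other libraries. J1 was 282-fold higher (counting interval 120.2 to 869), and no other library came near it. Trpm1 (ENSMUSG00000030523.18, chr7:64153835-64269772), a cation channel of melanocytes and retinal bipolar cells, stood at 90.6 CPM in J1, 1.24 in TT2, 4.98 and 3.09 in the Dnmt mutants and 0.662 to 1.77 in the others. It was 73.3-fold higher (counting interval 51.1 to 109). For both genes the Dnmt mutants lay above the TT2-labelled libraries by a margin far smaller than that of J1.

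Serpinb6c, a serine protease inhibitor gene, reached a higher level, at 216 CPM in J1, 40.7 and 28.3 in the Dnmt mutants, 3.16 to 22.2 in the 6 others and 5.40 in TT2. Srgn, which encodes the granule proteoglycan serglycin, was 36.9-fold higher (counting interval 24.6 to 58.1), at 36.5 against 0.989 CPM. It stood at 20.0 and 17.8 in the Dnmt mutants and 0.441 to 4.93 in the others. The 3 libraries labelled 129S4/SvJae lay above the other 7 for both genes. Lgals3, which encodes the galactose-binding lectin galectin-3, followed them at 106 against 4.74 CPM (22.3-fold higher). Olfr985, an olfactory receptor gene, was 277-fold higher (counting interval 76.0 to 2293) from only 2 counts in TT2.

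Other leading genes did not follow the strain label. Ripply3, a transcriptional corepressor gene, was 33.8-fold higher (counting interval 25.8 to 45.3) at 75.3 against 2.23 CPM, and all 8 other libraries lay at 0.792 to 2.87, so J1 stood alone. Aqp3, a water and glycerol channel, was 29.4-fold higher (counting interval 22.1 to 40.1), but the inhibitor-experiment libraries had 26.3 to 144 CPM, the library labelled G9a/GLP DKO 24.1 and G9a CM 1.84, so the untreated TT2 and G9a CM libraries were the low ones. The pattern for Lefty2, given below with its pathway, was similar.

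The largest difference downward among such genes was in Dppa3 (ENSMUSG00000046323.8, chr6:122626424-122630271), also called Stella, an oocyte and primordial germ cell protein that protects DNA methylation in the early embryo. It stood at 4.69 CPM in J1 and 575 in TT2, which was 123-fold lower (counting interval 97.1 to 157). All 8 other libraries held 118 to 1063 CPM, with 289.9 and 198 in the Dnmt mutants and 153 in the inhibitor control. J1 alone was low, and the low level was not shared by the libraries with its strain label. Dppa3-ps, an X-linked copy of Dppa3, had 0 counts in J1 and 1.77 CPM in TT2.

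Rpl29 (ENSMUSG00000048758.14, chr9:106428889-106431568), a protein of the large ribosomal subunit, was low in more than J1. It stood at 4.10 CPM in J1, 5.87 and 8.50 in the Dnmt mutants, 303 in TT2 and 217 to 384 in the 6 other libraries, and J1 was 74.1-fold lower (counting interval 57.7 to 96.7). Ndufs5 (ENSMUSG00000028648.13, chr4:123712710-123718186), a subunit of respiratory complex I, stood at 2.25, 1.36 and 2.00 CPM in the 3 libraries labelled 129S4/SvJae, 145 in TT2 and 26.5 to 103 in the others. For both genes the 3 libraries of the J1 strain were near the bottom and none of the other 7 overlapped them.

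Ubd (ENSMUSG00000035186.6, chr17:37193892-37196101), a ubiquitin-like modifier induced by inflammatory cytokines, had 0 counts in J1 and 22.3 CPM in TT2, at least 112-fold lower against a floor of 3 counts. It stood at 0 and 0.0541 CPM in the Dnmt mutants and 2.85 to 46.0 in the others. Bst2, the interferon-induced antiviral protein tetherin, was 55.8-fold lower (counting interval 28.1 to 129.6), at 0.528 against 29.5 CPM, with 1.36 and 0.595 in the Dnmt mutants and 6.89 to 58.4 in the others. Apoa2, an apolipoprotein of high-density lipoprotein, was 35.1-fold lower (counting interval 20.0 to 68.3). These 3 genes were low in all 3 libraries with the J1 strain label and higher in each of the other 7. Pla2g4a, a phospholipase that releases arachidonic acid, was 192-fold lower (counting interval 52.9 to 1587), and Myl9, a myosin light chain, 345-fold lower (counting interval 61.7 to 13649), from 2 and 1 counts in J1. Neither kept the lines apart in the other libraries.

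**Figure D2:**
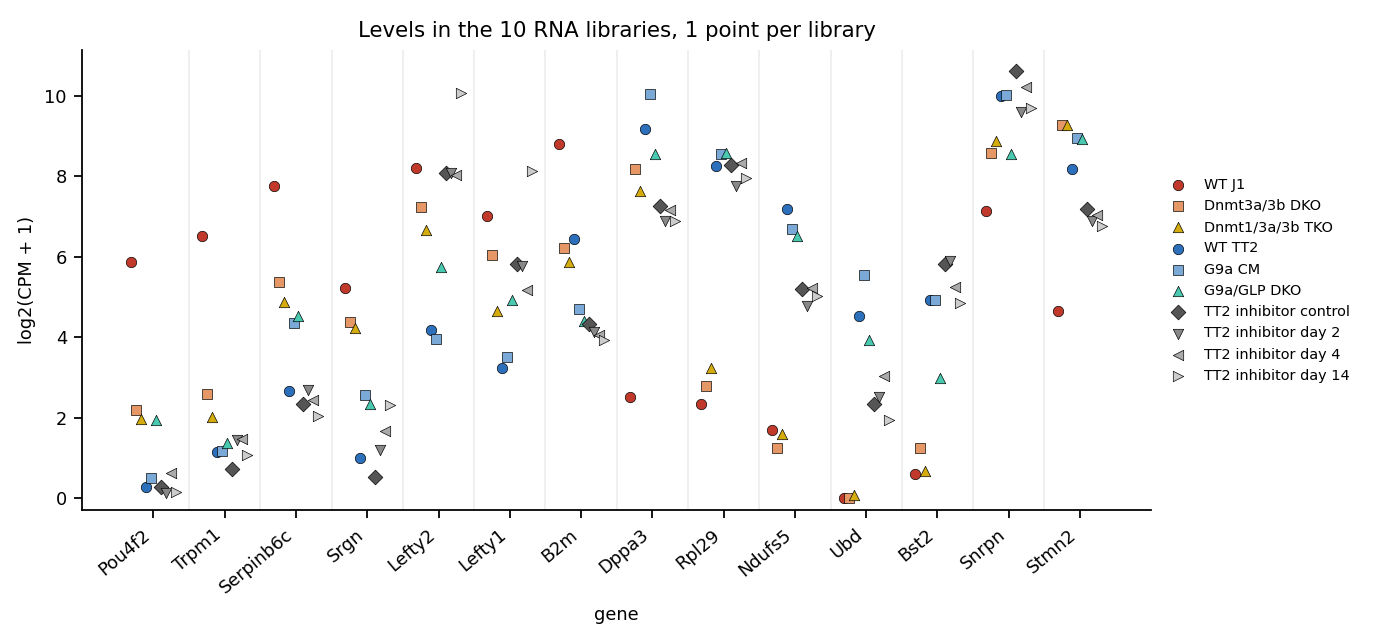
Levels of 14 genes as log2(CPM + 1) on the y axis, with 1 point per library and no error bars because no group had a replicate. Rpl29, Ndufs5, Ubd and Bst2 were low in all 3 libraries labelled 129S4/SvJae, whereas Pou4f2, Trpm1 and Dppa3 set J1 apart from every other library.

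Both lines carried the core pluripotency genes. Nanog stood at 386 CPM in J1 and 273 in TT2, Sox2 at 156 and 96.2, and Zfp42, also called Rex1, at 2023 and 2122, and none of them was called. Pou5f1, the central pluripotency factor Oct4, was counted at only 10.2 and 13.1 CPM, against 291 to 456 in the 4 inhibitor-experiment libraries. The level of Pou5f1 therefore differed between sets of libraries far more than between the lines. Of 24 naive pluripotency genes 8 were higher in J1 and 1 lower (median 0.60). For this list and those below, the shares over all measured genes were 10.9% higher and 12.8% lower.

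The higher naive genes were Dppa5a, Tcl1, Tfcp2l1, Klf5, Klf2, Tbx3, Gbx2 and Prdm14. Dppa5a, an RNA-binding protein of pluripotent cells, stood at 22733 CPM in J1, 4192 in TT2, 10514 and 7911 in the Dnmt mutants and 1882 to 6258 in the 6 others, which kept the lines apart. It was 5.42-fold higher (counting interval 5.38 to 5.46) and was the most abundant of the list. Tfcp2l1, a transcription factor that sustains self-renewal, stood at 237 against 71.0 CPM, and Tcl1, a coactivator of Akt kinase, at 669 against 186. Tbx3, a T-box repressor, was 12.4-fold higher (counting interval 9.10 to 17.4) and Klf5, a Krüppel-like factor, 4.16-fold higher (counting interval 3.81 to 4.55). Against the inhibitor control both went the other way, since it held 31.4 CPM of Tbx3 and 848 of Klf5, with log2 differences of -0.43 and -2.81. The median of the list against that library was -0.01, with 8 higher and 7 lower. Klf5 also lies in a stretch of chromosome 14 that was high in J1 as a whole, described below.

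Of 10 measured formative and primed genes 0 were higher and 4 lower in J1 (median -0.86). Cldn6, a tight junction protein, stood at 10.4 against 47.3 CPM and Otx2, a transcription factor of the epiblast and forebrain, at 5.15 against 13.3. The de novo DNA methyltransferases Dnmt3b and Dnmt3a were 4.03-fold lower (counting interval 3.63 to 4.49) and 3.30-fold lower (counting interval 2.89 to 3.79). Dnmt3b held 226 to 512 CPM in the 6 other libraries of the TT2 strain, so wild-type J1 was the low line against every one of them. Against the inhibitor control the list had 1 higher and 7 lower of 11 (median -2.01), so the direction was shared by both wild-type TT2 libraries. The Dnmt mutants did not share it for Otx2, with 27.9 and 25.3 CPM, above all 6 other libraries of the TT2 strain. Of the 10 genes 3 had the Dnmt mutants above and 2 below (17.3% and 15.9% over all measured genes). The 2 below were Dnmt3a and Dnmt3b, which those mutants lack.

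Targets of Nodal and BMP signalling, the TGF-beta pathways that pattern the early embryo, were among the lists higher in J1, with 8 of 16 higher, 1 lower and a median of 0.81. Lefty2, a secreted Nodal inhibitor, stood at 294 CPM in J1 and 17.0 in TT2 (17.3-fold higher), at 150.2 and 101 in the Dnmt mutants, 14.5 and 52.3 in G9a CM and the G9a/GLP-labelled library and 263 to 1070.2 in the inhibitor-experiment libraries. Lefty1, its paralogue, stood at 128 against 8.37 CPM and at 55.4 in the inhibitor control. Thus for Lefty2 the inhibitor control reached the level of J1, and the untreated TT2 and G9a CM libraries were the low ones. Nodal itself stood at 9.18 against 6.43 CPM and was not called. Smad7, an intracellular inhibitor of the pathway, was 4.37-fold higher (counting interval 3.67 to 5.23) and kept the lines apart, at 24.0 and 18.2 CPM in the Dnmt mutants against 4.64 to 7.28.

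Within the BMP arm, the inhibitor-of-differentiation genes did not all go the same way. Id1 was 4.69-fold higher (counting interval 4.24 to 5.19), Id2 stood at 176 against 63.5 CPM and Id4 at 5.48 against 1.85, all called higher. Id3 was called lower, at 38.3 against 146 CPM. Bmp4, a ligand, stood at 57.6 against 26.6 CPM and was called higher.

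FGF and ERK target genes, which report the pathway that drives exit from naive pluripotency, had 5 of 15 higher and 2 lower (median 0.44), but 2 higher and 2 lower (median 0.12) by deposited TPM. Dusp6, a phosphatase that turns ERK off, was 4.92-fold higher (counting interval 4.55 to 5.31). J1 held 177 CPM of Dusp6, TT2 36.0 and the inhibitor control 92.8. Spry2, a feedback inhibitor of receptor signalling, stood at 1139 against 425 CPM and lies in the same high stretch of chromosome 14, and Etv1, a transcription factor, stood at 26.9 against 6.72. Egr1, an immediate early transcription factor, went the other way at 4.69 against 12.9 CPM. Against the inhibitor control the list median was -0.80, with 3 higher and 7 lower, so the direction was seen against the untreated TT2 library and not against the inhibitor control.

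Wnt target genes had 1 higher and 4 lower of 10 (median -0.60). Tcf7, a transcription factor of the pathway, was 3.68-fold lower (counting interval 3.07 to 4.44) and Ccnd1, the cyclin D1 gene, 2.33-fold lower (counting interval 2.06 to 2.65). The inhibitor control held 11.5 CPM of Tcf7 and 130 of Ccnd1, against 9.12 and 20.9 in J1. Znrf3, a ubiquitin ligase that removes Wnt receptors, stood at 39.4 against 104 CPM in the untreated library but 32.4 in the inhibitor control, where its difference had the opposite sign (0.28). Dkk1, a secreted Wnt antagonist, had 0 counts in TT2 and 1.52 CPM in J1, at least 12.3-fold higher.

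Several primitive endoderm genes were higher in J1, most of them at low levels. Of 15 measured members 9 were higher and 1 lower (median 1.22), and 8 were higher and 2 lower against the inhibitor control. Of the 15, 7 passed the minimum of 1 CPM only through J1 and include 6 of the 9 higher genes, whose direction the minimum favours, while 3 of the 8 members at 1 CPM in TT2 were higher and 1 lower. With no minimum or size threshold, 14 of 19 listed genes had a counting interval wholly above 1 and 3 wholly below, against 21.9% and 24.5% of all genes with counts. Gata6, Gata4 and Hnf4a, transcription factors of that lineage, stood at 1.98, 2.05 and 1.52 CPM in J1 and 0.288, 0.0824 and 0.0824 in TT2. Col4a1 and Col4a2, which encode basement membrane collagen, stood at 7.46 and 5.75 against 1.81 and 0.742. Sparc, a matrix protein and the most abundant gene of the list in TT2, was 3.05-fold lower (counting interval 2.83 to 3.28), and it set the summed level of the list, which was 254 CPM in J1 and 277 in TT2. By deposited TPM only 8 members reached 1 TPM, and 1 was higher and 1 lower. In bulk RNA, fewer cells of a type and less RNA per cell cannot be told apart.

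Trophoblast genes had 3 higher and 2 lower of 10 (median -0.36). Tfap2c, a transcription factor of trophoblast and germ cells, was 4.70-fold lower (counting interval 3.89 to 5.72). Gata2, Tead4 and Krt8 were called higher at 3.63, 6.08 and 8.59 CPM, but the inhibitor control held 4.49, 8.31 and 60.5 and the sign turned against it. Of the 15 mesoderm and primitive streak genes only 3 were measured and none was called.

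Neural genes went both ways. Of 12 measured members 3 were higher and 4 lower (median -0.63). Stmn2, a microtubule regulator of neurons, was 12.1-fold lower (counting interval 10.9 to 13.4), at 24.0 against 289.9 CPM, while the Dnmt mutants held 621 and 614 and the other 6 libraries 108 to 496. Pax6, a transcription factor of neural progenitors, was 26.4-fold lower (counting interval 10.1 to 97.8). For both genes J1 was low and the Dnmt mutants were high. Pou4f2, described above, and its paralogue Pou4f1, at 9.64 against 4.24 CPM, were higher, as was Sox1, at 1.92 against 0.247.

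Markers of fibroblasts and feeder cells, which could be carried into a culture, were measured for 5 of 19 genes. Vim, an intermediate filament gene also expressed by stem cells, was 2.08-fold higher (counting interval 1.87 to 2.31), and Tagln, a smooth muscle gene, stood at 0.0661 against 1.36 CPM. The summed level of all 19 markers was 339.9 CPM in J1 and 269 in TT2, and Fn1, the fibronectin gene, gave 278 and 233 of it. In the Dnmt double and triple mutants the summed level was 266 and 216 CPM. Among the other markers Col3a1, Dcn and Postn had 0 counts in both wild-type lines and Col1a2 stood at 0 and 0.0412 CPM. Others were detected at low levels in J1 and TT2, such as Col1a1 at 0.330 and 0.907 CPM, Thy1 at 2.58 and 2.23 and Loxl1 at 1.39 and 1.24.

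**Figure D3:**
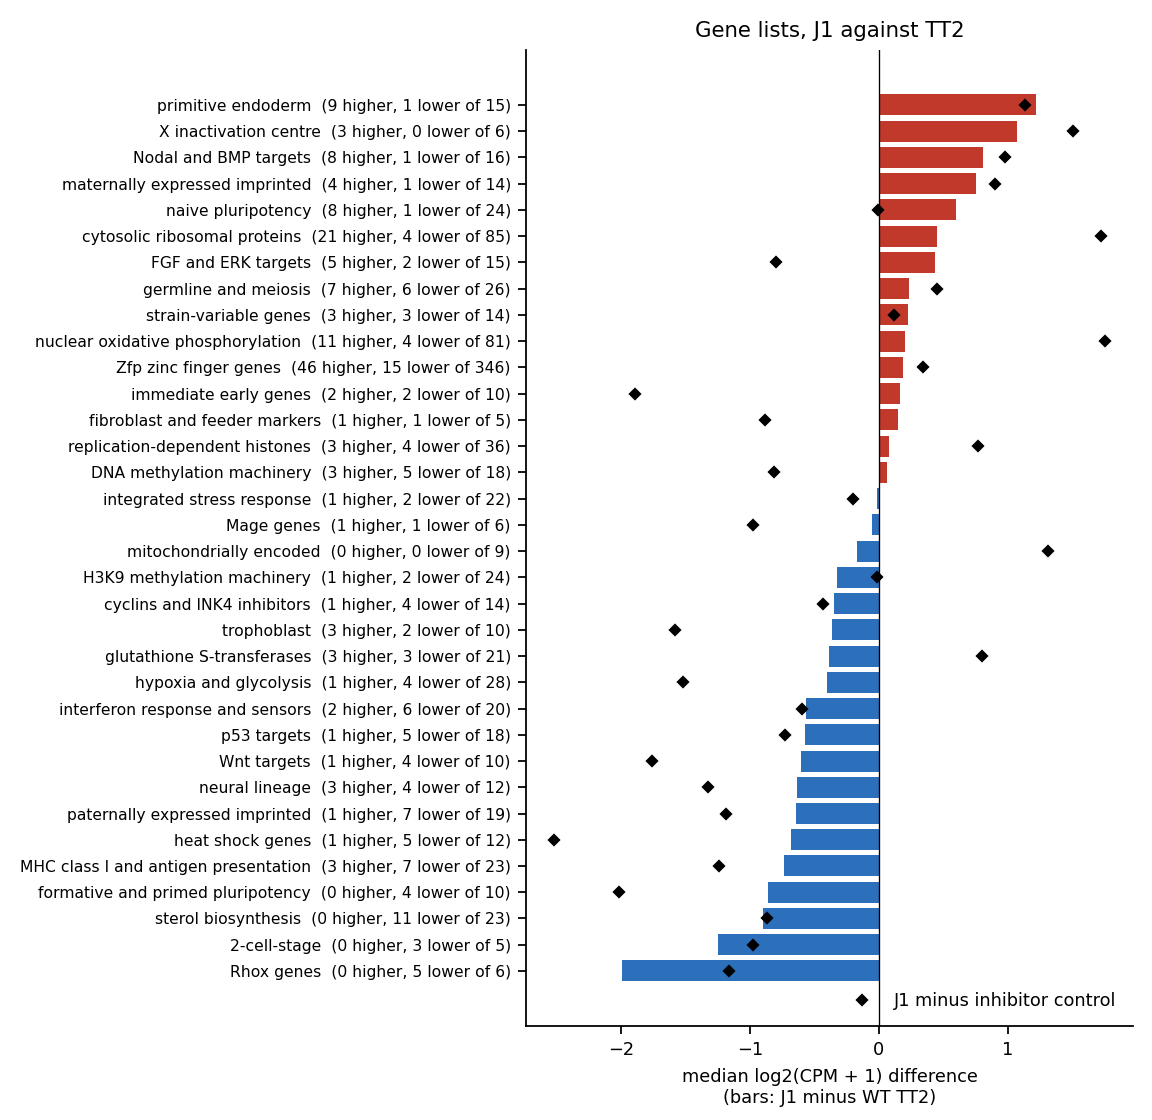
Bars give the median difference in log2(CPM + 1), J1 minus TT2, over the measured members of each gene list with at least 5, and the counts beside each name are genes called higher and lower. Diamonds give the median of J1 minus the inhibitor control, and ribosomal, oxidative phosphorylation, FGF and ERK, and heat shock lists are among those where the bar and diamond lie far apart.

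Genes of DNA methylation were split by direction in J1. Besides Dnmt3a and Dnmt3b, Dnmt3l, their catalytically inactive partner, stood at 33.2 against 77.3 CPM, and Tdg, a glycosylase of active demethylation, was 4.92-fold lower (counting interval 3.76 to 6.53). Tet2 and Tet3, dioxygenases that oxidise 5-methylcytosine, were 4.28-fold higher (counting interval 3.84 to 4.79) and 5.96-fold higher (counting interval 4.16 to 8.72). Dnmt1, the maintenance enzyme, stood at 45.9 against 53.2 CPM, Uhrf1, its recruiter, at 93.6 against 62.8, and Tet1 at 202 against 210.0, and none of these was called. Of the list's 18 genes 3 were higher and 5 lower (median 0.06), and 1 higher and 5 lower (median -0.43) by deposited TPM. Tet2 kept the lines apart, with 63.8 and 49.3 CPM in the Dnmt mutants and 10.8 to 39.7 in the others.

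Genes of H3K9 methylation, the repressive mark that G9a writes, had 1 higher and 2 lower of 24. Ehmt2, which encodes G9a, stood at 6.87 CPM in J1 and 15.2 in TT2 (2.22-fold lower), but its log2 difference was -0.93 with DESeq2 size factors and it was then not called. The inhibitor control held 77.3 CPM. Ehmt1, which encodes GLP, stood at 25.3 against 40.1 CPM and Setdb1 at 41.6 against 54.3, and neither was called. Cbx1, which encodes heterochromatin protein 1 beta, was 3.18-fold lower (counting interval 3.07 to 3.30). J1 held 235 CPM of Cbx1, TT2 747 and the inhibitor control 271, so the gap was to the untreated library.

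X-linked Xlr and Rhox genes were low in J1, and Rhox genes are known to be silenced by DNA methylation in many tissues. All 4 measured Xlr genes were lower, but all passed the minimum only through TT2, which favours that direction. With no minimum the interval lay below 1 for 5 and above 1 for 0 of 9 listed. Xlr3a stood at 0.396 against 60.2 CPM and Xlr4a at 0.132 against 11.9. Of 6 measured Rhox homeobox genes 5 were lower, with Rhox5 at 64.9 against 484 CPM and Rhox6 at 1.85 against 59.9. Against the inhibitor control 3 of 4 Xlr and 4 of 6 Rhox genes were lower. The Dnmt mutants did not share the low levels, holding 106 and 87.6 CPM of Xlr3a and 55.1 and 38.0 of Rhox6. RSEM shares reads among near-identical members, so single Xlr genes are uncertain. Of 5 measured genes of the 2-cell-stage list, 3 were lower, with Calcoco2, an autophagy receptor gene, at 15.7 against 80.1 CPM. The other two, Pramel6 and Pramel7, passed the minimum only through TT2.

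Germline and meiosis genes had 7 higher and 6 lower of 26 (median 0.24), but 3 higher and 5 lower (median -0.06) by deposited TPM. Sycp3, of the synaptonemal complex, was 5.33-fold higher (counting interval 4.94 to 5.75), Stag3, a meiotic cohesin subunit, 7.89-fold higher (counting interval 6.40 to 9.82), and Dazl, an RNA-binding protein of germ cells, stood at 25.3 against 9.97 CPM. Tex19.1, a germ cell and placental gene that restrains retrotransposons, was 13.3-fold lower (counting interval 11.6 to 15.4), and Fkbp6, of the piRNA pathway, 7.29-fold lower (counting interval 4.98 to 11.1). Sycp1, another synaptonemal complex gene, went against Sycp3 and was lower, at 5.95 against 15.7 CPM.

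Imprinted genes, which are expressed from 1 parental allele under the control of germline DNA methylation, split by parent. Of 14 maternally expressed genes 4 were higher and 1 lower in J1 (median 0.76). Of 19 paternally expressed genes 1 was higher and 7 were lower (median -0.64). Against the inhibitor control the medians were 0.90 and -1.19. Snrpn, a splicing protein gene of the Prader-Willi region, stood at 139 CPM in J1, 1029 in TT2, 382 and 468 in the Dnmt mutants and 374 to 1559 in the other 6, and was 7.39-fold lower (counting interval 7.07 to 7.73). Peg3, a zinc finger gene, was 6.46-fold lower (counting interval 5.33 to 7.89), and J1 again had the lowest of the 10 levels. Nnat, which encodes neuronatin, was 6.76-fold lower (counting interval 4.64 to 10.2). Among maternally expressed genes, Cdkn1c, a cyclin-dependent kinase inhibitor, was 9.76-fold higher (counting interval 7.37 to 13.1) and Grb10, a growth factor receptor adaptor, 4.47-fold higher (counting interval 3.86 to 5.19). H19, a long noncoding RNA, went against its list at 0.793 against 5.52 CPM. The sources used here do not give the strand setting of the counting, and Snurf and Snrpn, which share a transcript, cannot be told apart.

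Genes of the X inactivation centre had 3 higher and 0 lower of 6, but 1 and 1 by deposited TPM. Tsix, the antisense partner of Xist, stood at 14.5 against 2.31 CPM and Xist at 7.46 against 2.68. Without the strand their reads cannot be told apart, and both levels were low.

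Sterol biosynthesis genes were lower in J1 as a list, with 11 of 23 lower, 0 higher and a median of -0.90. With DESeq2 size factors 7 were lower and 0 higher (median -0.78). Against the inhibitor control 10 were lower and 2 higher (median -0.87). Fdps, a prenyl synthase, stood at 142 against 424 CPM and Sqle, the squalene epoxidase, at 33.1 against 87.0. Mvd, of the mevalonate branch, was 3.46-fold lower (counting interval 2.84 to 4.25). Hmgcs1, an early enzyme of the pathway, stood at 100.5 against 143 CPM and was not called.

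Hypoxia and glycolysis genes had 1 higher and 4 lower of 28 (median -0.40), and the 14.3% lower was near the 12.8% of all measured genes. Pkm, the pyruvate kinase, was 2.89-fold lower (counting interval 2.78 to 3.01), Eno1, an enolase, 2.40-fold lower (counting interval 2.31 to 2.48), and Slc2a1, a glucose transporter, 2.39-fold lower (counting interval 2.25 to 2.55). The inhibitor control held 9891 CPM of Pkm, so the gap to that library was far wider than to untreated TT2. p53 target genes had 1 higher and 5 lower of 18 (median -0.57), led by Aen, an apoptosis-enhancing nuclease, at 3.24 against 20.3 CPM. Bax, a pore-forming apoptosis protein, was 2.42-fold lower (counting interval 2.28 to 2.57), and Cdkn1a, the p21 cell cycle inhibitor, stood at 30.1 against 63.5 CPM. Heat shock genes had 1 higher and 5 lower of 12. Hspa8, a constitutive chaperone, was 4.14-fold lower (counting interval 4.02 to 4.27), and Hspb1, a small heat shock protein, 3.53-fold higher (counting interval 3.38 to 3.69). The inhibitor control held 4901 CPM of Hspa8 and 261 of Hspb1, against 307 and 448 in J1.

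Cyclin and INK4 inhibitor genes had 1 higher and 4 lower of 14. Ccnd2, which encodes cyclin D2, was 20.6-fold lower (counting interval 14.3 to 31.0), at 1.92 against 39.6 CPM, and Ccne1, which encodes cyclin E1, 2.76-fold lower (counting interval 2.61 to 2.93). G9a CM and the library labelled G9a/GLP DKO held 2.97 and 0.871 CPM of Ccnd2, so low levels were not limited to J1. Cth, an enzyme of cysteine synthesis in the integrated stress response list, was 5.51-fold higher (counting interval 5.22 to 5.83), while that list had 1 higher and 2 lower of 22.

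Ribosomal protein genes had 21 higher and 4 lower of 85 (median 0.45), and nuclear genes of oxidative phosphorylation 11 higher and 4 lower of 81 (median 0.20). By deposited TPM the ribosomal list had 14 higher and 6 lower of 86 (median 0.25). The oxidative phosphorylation list had 13.6% higher beside 10.9% of all genes. By deposited TPM it had 7 higher and 10 lower, with a median of -0.08 beside -0.33 over all genes on that scale. The sign of its median thus depended on the scaling, but it lay above the median of all genes on both scales. Rps20, of the small subunit, was 3.96-fold higher (counting interval 3.90 to 4.03) and Cox6b2, a testis-type cytochrome oxidase subunit, 4.27-fold higher (counting interval 3.92 to 4.64). The inhibitor control lay below untreated TT2 in both lists, with medians of -1.11 and -1.68. From the shortest to the longest quartile of protein-coding genes by length, the medians were -0.19, -0.22, -0.11 and 0.03 for J1 minus TT2, and -0.65, 0.12, 0.37 and -0.14 for the inhibitor control minus TT2. Mitochondrially encoded genes had 0 higher and 0 lower of 9.

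Immune genes were among those that kept the lines apart. Of 20 interferon response genes 2 were higher and 6 lower (median -0.56). Besides Bst2, Oasl2, an antiviral protein of the oligoadenylate synthetase family, stood at 0.198 against 3.05 CPM, with 0.415 and 0.379 in the Dnmt mutants and 2.20 to 9.08 in the others. Xaf1, an interferon-induced apoptosis factor, was 5.59-fold higher (counting interval 4.25 to 7.43). Of 23 antigen presentation genes 3 were higher and 7 lower (median -0.73), and 15 of the 23 reached 1 CPM in J1 against 22 in TT2. The minimum favours the lower direction for members that passed it only through TT2. With no minimum or size threshold, the counting interval lay wholly below 1 for 19 and above 1 for 5 of 37 listed genes. Over all genes with counts the shares were 24.5% below and 21.9% above.

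B2m, the light chain shared by all class I molecules, was higher while 7 others of its list were lower. It stood at 443 CPM in J1, 85.4 in TT2, 73.4 and 57.9 in the Dnmt mutants and 14.2 to 25 in the others, and was 5.18-fold higher (counting interval 4.93 to 5.45). H2-M3, which presents formylated peptides, was 7.25-fold lower (counting interval 4.64 to 11.9), and Erap1, which trims peptides, 5.30-fold lower (counting interval 3.46 to 8.47). Many class I genes of the H2 region are near-identical and differ in number between strains, so single H2 genes are uncertain. Among genes chosen because they are known to vary between inbred strains, Trim12a, a Trim5-family gene, had 0 counts in J1 and 5.98 CPM in TT2, at least 30.1-fold lower. It stood at 0.119 and 0 CPM in the Dnmt mutants and 2.17 to 7.54 in the others. Rnf213, a large ubiquitin ligase, was 5.03-fold higher (counting interval 4.12 to 6.17). In the whole strain-variable list 3 were higher and 3 lower of 14.

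Zinc finger genes named Zfp had 46 higher and 15 lower of 346 (13.3% and 4.34%, median 0.19). By deposited TPM the counts were 20 and 17 of 300 and the median -0.11, beside -0.33 over all genes on that scale. The sign of the family's median thus depended on the scaling, but it lay above the median of all genes on both scales. On chromosome 13 a run of 7 adjacent measured genes was higher, namely Rsl1, Zfp455, Zfp458, Zfp457, Zfp595, Zfp953 and Zfp456, and 5 of the 7 kept the lines apart (41.7% over all genes higher in J1). These are KRAB zinc finger genes, repressors that arose by local duplication. Zfp429, another zinc finger gene, was 7.57-fold lower (counting interval 4.47 to 13.8), with 0.119 and 0.812 CPM in the Dnmt mutants against 5.94 to 7.75.

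Some of the widest gaps between the lines lay in gene copies. The genes of this and the next paragraph were chosen after their values were seen, apart from Rpl34-ps1, Eif3j1 and Rps3a1. Rps13-ps1, a processed copy of a small-subunit ribosomal protein gene, stood at 627 CPM in J1, 476 and 404 in the Dnmt mutants, 0.206 in TT2 and 0 to 0.356 in the other 6. Its parent Rps13 stood at 529.9 and 463 CPM and was not called. Rpl34-ps1 was 27.2-fold higher (counting interval 23.2 to 32.1), and its parent Rpl34 was 2.44-fold lower (counting interval 2.37 to 2.52) from untreated TT2 but had 267 CPM in the inhibitor control, where the sign turned (0.44).

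Eif3j1 and Eif3j2, near-identical genes of translation initiation factor 3, differed in opposite directions. Eif3j1 stood at 2.44 CPM in J1, 2.13 and 3.19 in the Dnmt mutants, 44.0 in TT2 and 24.5 to 47.2 in the others. Eif3j2 stood at 55.9, 57.8 and 64.2 CPM in the 3 libraries of the J1 strain, 15.6 in TT2 and 14.4 to 25 in the others. Their sum was 58.3 CPM in J1 and 59.5 in TT2. Rps3a1 was 4.13-fold lower (counting interval 3.97 to 4.31), while its copies Rps3a2 and Rps3a3 were 6.14-fold higher (counting interval 5.76 to 6.54) and 4.10-fold higher (counting interval 4.00 to 4.20). The sum of these 3 was 1967 CPM in J1 and 1129 in TT2, a log2 difference of 0.80. The sums with 1 copy also differed, by 1.32 for Rps13 with Rps13-ps1 and -0.71 for Rpl34 with Rpl34-ps1. Rps3a2 lies in the high stretch of chromosome 14. Reads of near-identical copies are shared out by RSEM, so single copies are uncertain, and the part of strain variants in that assignment was not tested.

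**Figure D4:**
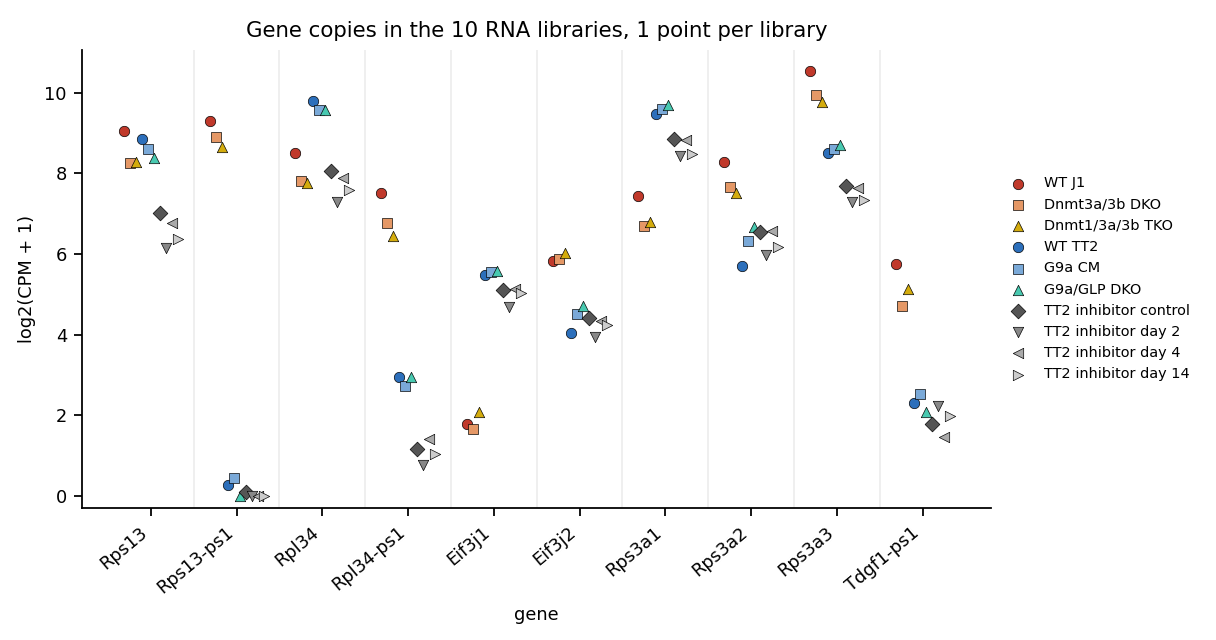
Levels of 10 genes and gene copies as log2(CPM + 1) on the y axis, 1 point per library with no error bars. Rps13-ps1, Rpl34-ps1, Rps3a2, Rps3a3 and Tdgf1-ps1 were high, and Eif3j1 and Rps3a1 low, in the 3 libraries labelled 129S4/SvJae.

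Of 105 named copies with a measured parent, 24 (22.9%) were higher in J1 and 12 lower, and the parents of the 24 were themselves higher in 12 cases, lower in 3 and not called in 9. Rps2-ps10, a copy of Rps2, stood at 0.132 against 41.3 CPM, and Tdgf1-ps1, a copy of the Nodal coreceptor gene Tdgf1, at 52.5 against 3.96. Of 42 small nucleolar RNA genes, 34 were higher and 0 lower (median 1.39). These RNAs guide modification of ribosomal RNA and mostly lie in introns of host genes. The minimum of 1 CPM favours the higher direction for members that passed it only through J1, and their number was not counted. By deposited TPM 60 of 122 were higher and 0 lower. That scale divides by effective length, so for short genes it depends on fragment length, which was 186 bases in J1 and 149.8 in TT2. Of 525 long noncoding RNA genes 158 (30.1%) were higher and 63 lower, with medians of 0.55, and 0.38 by deposited TPM. Snora74a stood at 18.4 against 0.989 CPM. Among long noncoding RNAs Neat1, which builds nuclear paraspeckles, stood at 176 against 11.4 CPM, 22.1 and 10.0 in the Dnmt mutants and 10.7 in the inhibitor control. Among 12058 protein-coding genes 9.03% were higher and 13.1% lower, a balance that turned with DESeq2 size factors (1357 higher and 1276 lower).

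Gene position was examined with genes of at least 10 CPM in either library. On 18 of 20 chromosomes the median difference lay between -0.21 and 0.22. The exceptions were chromosome 11, with a median of -0.66 over 669 genes, and chromosome 1, with -0.38 over 502. On chromosome 11, of 1073 measured genes 271 (25.3%) were lower and 60 higher in J1. Dnmt3a/3b DKO also lay below TT2 on this chromosome, with a median of -0.44, whereas the other 7 libraries lay between -0.13 and -0.02. Lower genes of chromosome 11 included Tex19.1, Sparc, Calcoco2, Cbx1, Tcf7 and Znrf3, described above, and a run of 10 adjacent measured genes that holds Znrf3 and the stress transcription factor gene Xbp1. By deposited TPM 38 genes of chromosome 11 were higher and 353 lower. On chromosome 1 every other library lay below TT2, with medians of -0.63 to -0.35, and over all chromosomes the 8 libraries other than J1 had medians of -0.37 to -0.09.

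Chromosome 14 had the strongest local pattern, and its segments were set after the data were seen. From 70 to 110 Mb, 57 of 63 genes were above 0, with a median of 1.42, and 51 of the 84 measured genes (60.7%) were higher and 6 lower. J1 had the highest of the 10 values in 57 of the 84. In the 8 other libraries the median against TT2 was -0.66 to -0.10, Dnmt mutants included. Genes between 0 and 70 Mb had a median of 0.05. Beyond 110 Mb the median was -0.98 over 14 genes, and 13 of 27 measured genes were lower and 2 higher. By deposited TPM the counts were 39 higher and 4 lower of 84 in the high segment and 2 higher and 11 lower of 25 beyond it. The direction thus turned along the chromosome, and a positive median of the high segment was found in J1 and in none of the other 8 libraries.

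Named genes of the high segment cover unrelated functions. Kbtbd7 and Kbtbd6, ubiquitin ligase adaptors, stood at 36.7 and 17.5 against 4.33 and 0.824 CPM, and Mzt1, a partner of gamma-tubulin complexes, at 432 against 84.4. Klf5, Spry2 and Pou4f1 lie in the same segment. Beyond it, Zic5, a zinc finger gene of the neural crest, stood at 2.84 against 29.4 CPM and Ipo5, a nuclear import receptor, at 123 against 336, while Mir17hg, the host gene of the miR-17-92 cluster, stood at 106 against 17.3. Without chromosome 14 from 70 Mb onward, the genome-wide counts were 1444 higher and 1740 lower.

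**Figure D5:**
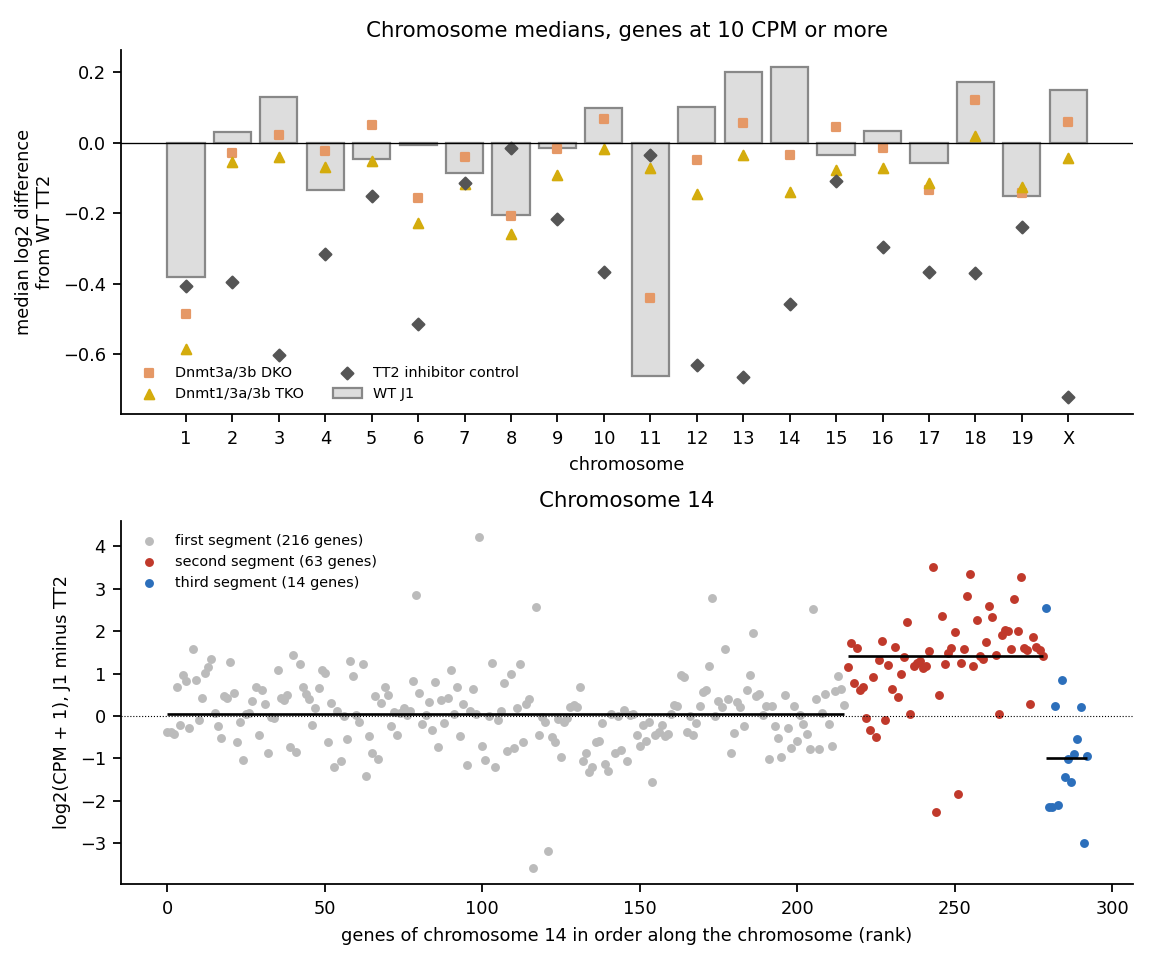
Above, bars give the median difference from TT2 in log2(CPM + 1) for J1 on each chromosome, over genes at 10 CPM or more, with points for the Dnmt mutants and the inhibitor control. Below, each point is a gene of chromosome 14 in order along the chromosome, with black lines at the medians of its segments (0.05, 1.42 and -0.98 for J1 minus TT2).

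Called genes also lay side by side elsewhere. Of 13214 genes placed on a chromosome, 413 were in 116 runs of at least 3 adjacent measured genes called in the same direction, of which 51 were higher and 65 lower. Chromosome 11 held 17 of the lower runs and chromosome 14 held 8 of the higher ones, with the longest run of 12 genes. Of those 12, 3 had the Dnmt mutants above the 6 other libraries labelled C57BL/6xCBA. A run on chromosome 9 that was lower in J1 holds Rpl29 between Dusp7 and Acy1, and 4 of its 5 genes kept the lines apart (39.7% over all genes lower in J1). On chromosome 1, 5 adjacent crystallin genes (Cryge, Crygd, Crygc, Crygb and Cryga), which encode lens proteins, were lower with 1 neighbour. Of these 6 genes 0 had the Dnmt mutants below the 6 other libraries. On the X chromosome the Rhox genes formed a run of 7 with 2 interspersed genes, and 0 of the 7 had the Dnmt mutants below.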

How the data were processed

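RNA-seq values of 10 libraries were used, and the other 120 samples of the series (chromatin and other assays) were not analysed here. STAR 2.5.3a, RSEM and the builds GRCm38 and mm10 are listed in the submitters' processing notes. The deposited expected counts per gene were made by the authors with RSEM, which shares out reads that match several genes, so they need not be whole. The deposited TPM values are RSEM's own, scaled to effective length. The annotation release is not stated in the sources used. The posterior standard deviation of each count, also in the authors' tables, was used in 1 alternative.

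Expected counts were rounded to whole reads, then scaled to CPM with TMM factors over the 10 libraries (edgeR 4.0.16, R 4.3.3). Calls needed at least 1 CPM in either library, a difference of 1 in log2(CPM + 1) and a 95% Clopper-Pearson interval of the count ratio without 1 (scipy 1.17.1, Python 3.11.15). The floor of 3 counts was 0.198 CPM in J1 and 0.124 in TT2, and totals ran from 11436808 to 25609600 reads. Simulated data with 52216 genes held counting error alone, with no variation between cultures or from amplification. On them the rule recovered 0% of genes changed 1.5-fold, which is below its size threshold, 98.5% changed 3-fold and 100% changed 6-fold. It called 0 unchanged genes there, which gives no rate of false calls for real libraries. Symbols were found for 99.7% of gene identifiers. RefSeq positions (GRCm38.p6), matched by gene identifier and otherwise by symbol or synonym, were found for 96.5% of measured genes.

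The genes named were the 10 largest each way among called protein-coding genes that reached 10 CPM and have a standard symbol, the 6 largest each way that also kept the lines apart, up to 4 members of each list with at least 3 measured, and members of runs of adjacent called genes. Other genes were chosen after their values were seen, and a paragraph may name fewer. The comparison and the 38 gene lists were chosen with earlier results of these data known. The alternatives were DESeq2 1.42.0 size factors, TMM over the pair, total counts, TPM, other thresholds, the inhibitor control in place of TT2, and libraries left out.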

Additional observations from a re-analysis of the deposited data

How the results depend on the processing

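No paired analysis was possible because each RNA group has 1 library. Counts of higher and lower genes stayed within 1.5 times of 1497 and 1759 with DESeq2 size factors, TMM over the pair, total counts, a pseudocount of 0.5 and a minimum of 5 CPM. By deposited TPM 952 genes were higher, and the share of calls that were higher was 29.4%, against 56.2% with DESeq2 size factors. With the threshold at 2 on the log2 scale, 274 were higher and 239 lower. Genes that were called and kept the lines apart numbered 624 higher and 698 lower, 374 and 1118 by deposited TPM, and 109 and 83 where a gap of at least 2-fold was required. With 1 library left out they ranged from 626 to 808 higher and from 704 to 897 lower, since fewer libraries make the rule easier to meet. With the inhibitor control in place of wild-type TT2, 4084 genes were higher and 4317 lower. Sign was checked for named genes that were called and for list medians of at least 0.5 in size. Among these, the median of the naive list (-0.0070), Tbx3 (-0.43), Klf5 (-2.81), Gata2 (-0.24) and Tead4 (-0.40) turned sign. So did Krt8 (-2.68), Hist1h4c (0.17), Znrf3 (0.28), Zfp36 (-1.40), Fos (-2.06) and Rpl34 (0.44). Smaller medians also turned, such as that of FGF and ERK targets (0.44 against TT2 and -0.80 against the control). The cause was not tested. Of the 162 named genes 17 others fell short of the threshold against that library, Lefty2, Dusp6, Cbx1, Tcf7 and Hspb1 among them. Over all other settings together there were 1134 comparisons of named genes. In them no gene called in the main setting turned sign, 41 fell short of the threshold and 13 passed it only there. Named genes that were not called were not checked for sign. Leaving out chromosome 14 from 70 Mb (1444 and 1740), chromosome 11 (1437 and 1488) or all but protein-coding genes (1089 and 1585) was chosen after seeing the data. Depth limits genes with few counts, where the intervals are wide.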

Other observations

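Of 21 measured glutathione S-transferase genes 3 were higher and 3 lower in J1 (median -0.38). Replication-dependent histone genes had 3 higher and 4 lower of 36 (median 0.08), but 1 higher and 8 lower (median -0.07) by deposited TPM. Immediate early genes had 2 higher and 2 lower of 10, and 0 and 2 by deposited TPM. Fos, a subunit of the AP-1 factor, stood at 5.55 against 2.14 CPM and at 26.3 in the inhibitor control. Mage genes had 1 higher and 1 lower of 6. Clustered protocadherins, cell adhesion proteins, had 2 higher of 4 measured, and Hox genes 1 of 2. Of these 6 measured genes, 1 reached the minimum of 1 CPM in TT2, so the minimum favours the higher direction.

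Genes with only a Gm name also showed wide gaps. Gm10260 stood at 1.72 CPM in J1, 0.652 and 1.41 in the Dnmt mutants, 322 in TT2 and 1.31 to 258 in the other 6 libraries. Gm15772 stood at 8.92 CPM in J1, 7.47 and 9.80 in the Dnmt mutants, 938 in TT2 and 213 to 367 in the others. In the opposite direction, Gm8730 stood at 606 CPM in J1, 598 and 502 in the Dnmt mutants, 20.6 in TT2 and 18.7 to 29.1 in the others. These 3 genes were chosen after their values were seen.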
